A study of Mus musculus with 8 samples.

Results

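The 10 genes described here are imprinted genes that have been linked to the quiescence of haematopoietic stem cells (HSCs). They are *H19*, *Meg3*, *Cdkn1c*, *Ndn*, *Grb10*, *Peg3*, *Igf2r*, *Mest*, *Impact* and *Plagl1*. They were taken by name, under a rule that uses no measured value, and all 10 were found among the 20207 genes listed for each library. The values were RPKM (reads per kilobase of transcript, scaled to the number of reads in the library) from RNA sequencing of sorted mouse bone marrow cells. Long-term (LT) stem cells were the CD150+CD48-CD135-KLS+ fraction, short-term (ST) stem cells the CD150-CD48-CD135-KLS+ fraction, and KLS- cells the c-Kit+ Lineage- Sca-1- progenitors. Normal LT-HSCs gave 2 libraries, replicate 1 from mice labelled 2 months old and replicate 2 from mice labelled 6 months old. Normal ST-HSCs and normal KLS- cells gave 1 library each, both labelled 2 months old. LT-CML stem cells gave 2 libraries, and ST-CML stem cells and CML-KLS- cells 1 each, with no age in the labels. The methods for isolating these cells give both kinds of mice ages in weeks, in a range that does not reach 6 months.

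The CML cells came from mice with chronic myelogenous leukaemia induced by BCR-ABL1. In the study's methods these mice carry both *Tal1-tTA* and *TRE-BCR-ABL1*, and doxycycline withdrawal switches the oncogene on. Their healthy littermates carried *Tal1-tTA* alone, so the transactivator was common to both. *Tal1* regulatory elements restrict BCR-ABL1 to cells that use them. The methods give the FVB/N background, whereas the labels give C57BL/6 for every library. Nothing in the labels says whether the LT replicates came from separate mice or pools, so the p-values measure only the spread between these libraries, part of which may be technical. The 2 LT-HSC libraries also differ in age. Age and replicate cannot be told apart there.

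An imprinted gene is transcribed mainly from the copy inherited from one parent. The copies are told apart by DNA methylation that is laid down at CG dinucleotides in the germ line and preserved at every cell division. Many imprinted genes act on growth. *Cdkn1c* encodes p57, an inhibitor of cyclin-dependent kinases that helps to hold HSCs out of the cell cycle, and *Ndn* encodes necdin, a growth suppressor that binds E2F1 and p53. *Meg3* and *H19* are maternally expressed non-coding RNAs, *Grb10* encodes an adaptor that dampens insulin and IGF-1 receptor signalling, and *Igf2r* encodes the receptor that removes IGF2. *Peg3* and *Plagl1* encode zinc-finger proteins, *Mest* an α/β-hydrolase-fold protein and *Impact* an inhibitor of the GCN2 stress kinase. RPKM counts the transcripts of both parental copies together, so the imprint itself was not measured.

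The promoters of 4 of these genes are shown as examples of different levels in KLS- cells. *Ndn* and *Meg3* were at or near 0 in KLS- cells, whereas *Grb10* and *Igf2r* were lower there but still detected. RefSeq promoter windows (GRCm38.p6 build, 250 bases before to 50 after the start) are reported here for 7 of the 10 genes, with 11 windows in all. *H19*, *Cdkn1c* and *Impact* are not among them, which does not show that these genes lack such a window. Each sequence runs 5′ to 3′ on the strand of the gene, and capitals mark CG dinucleotides. The windows are chr7:62348027-62348326 on the plus strand for *Ndn*, chr12:109540746-109541045 on the plus strand for the first *Meg3* start, chr11:12037371-12037670 on the minus strand for the first *Grb10* start and chr17:12769657-12769956 on the minus strand for *Igf2r*.
Ndn: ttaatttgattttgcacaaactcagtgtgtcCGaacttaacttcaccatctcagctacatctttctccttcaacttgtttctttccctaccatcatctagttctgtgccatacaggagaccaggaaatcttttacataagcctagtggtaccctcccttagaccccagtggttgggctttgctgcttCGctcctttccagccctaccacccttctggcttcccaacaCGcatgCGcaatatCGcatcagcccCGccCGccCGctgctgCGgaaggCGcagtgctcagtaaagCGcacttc
Meg3: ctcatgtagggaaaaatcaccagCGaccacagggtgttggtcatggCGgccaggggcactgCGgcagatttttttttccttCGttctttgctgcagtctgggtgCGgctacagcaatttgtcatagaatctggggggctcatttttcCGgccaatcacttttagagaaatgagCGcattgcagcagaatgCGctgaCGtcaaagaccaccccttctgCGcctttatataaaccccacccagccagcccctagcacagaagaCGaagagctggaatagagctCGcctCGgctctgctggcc
Grb10: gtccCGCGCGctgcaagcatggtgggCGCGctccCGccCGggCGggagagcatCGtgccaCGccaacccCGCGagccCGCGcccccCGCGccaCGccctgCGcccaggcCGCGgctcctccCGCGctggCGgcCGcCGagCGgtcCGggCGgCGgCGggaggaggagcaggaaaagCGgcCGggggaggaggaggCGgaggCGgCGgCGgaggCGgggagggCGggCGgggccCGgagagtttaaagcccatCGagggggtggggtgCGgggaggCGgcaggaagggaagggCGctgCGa
Igf2r: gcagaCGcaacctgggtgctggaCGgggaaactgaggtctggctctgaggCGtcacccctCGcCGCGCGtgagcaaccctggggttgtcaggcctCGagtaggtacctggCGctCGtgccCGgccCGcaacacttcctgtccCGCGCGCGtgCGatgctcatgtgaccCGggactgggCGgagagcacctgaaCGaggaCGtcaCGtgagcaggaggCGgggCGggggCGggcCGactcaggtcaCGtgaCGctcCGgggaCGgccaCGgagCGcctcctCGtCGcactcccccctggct

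The *Grb10* window held 45 CG dinucleotides and the *Igf2r* window 34. At least as many were found in 1.93% and 7.73% of all 32851 mouse promoter windows, respectively. The *Ndn* window held 11 and the *Meg3* window 13, counts reached by 41.4% and 37.9% of all windows. CG density did not sort the genes by their level in KLS- cells. *Mest*, which KLS- cells still expressed, had 8, 17 and 17 CG dinucleotides in its 3 windows, and *Plagl1*, barely detected in any library, had 26. The *Peg3* window held 13. A GC box (GGGCGG, searched on both strands) occurred 2 times in the *Ndn* window, 5 times in the *Grb10* window, 3 times in the *Igf2r* window and 0 times in the *Meg3* window, and 35.7% of all windows had at least 1. TATAAA, also searched on both strands, was found in the *Meg3* window alone among these 4, against 13.6% of all windows. Its 2 positions there overlap and lie on opposite strands. CACGTG, an E-box, occurred 2 times in the *Igf2r* window and is present in 7.15% of all windows. AGATAA (11.2% of all windows) and CCGGAAG (8.86%) were in none of the 4. *Grb10* and *Meg3* each have a second window in the table, with 9 and 1 CG dinucleotides, and a gene-level RPKM does not say which start was used.

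The files' own build is mm9. On its GENCODE M1 annotation, *Ndn* is a gene of 1 exon at chr7:69493163-69494814, *Peg3* lies at chr7:6656603-6683132, *Meg3* at chr12:110779211-110809936, *Grb10* at chr11:11830511-11938686, *Igf2r* at chr17:12875272-12962530, *Mest* at chr6:30673547-30698457 and *Plagl1* at chr10:12810497-12851500. *H19* and *Cdkn1c* are on chromosome 7, so 4 of the genes share that chromosome. *Igf2r* overlaps the imprinted antisense RNA *Airn*, and no strand-specific counting was stated, so reads of the pair may not be separable. *Airn* was listed between 0.192 and 1.18 RPKM.

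The sorted fractions matched their gates at the RNA level in part. *Slamf1* (CD150) was at 10.7 to 35.5 RPKM in the 4 LT libraries and at 0.955 to 2.87 RPKM in the others. *Ly6a* (Sca-1) was at 72.4 to 152 RPKM in stem cell libraries and at 8.16 and 11.7 RPKM in KLS- libraries. *Flt3* (CD135) was highest in the ST libraries, at 61.6 and 71.6 RPKM, although the gate excludes CD135+ cells. Markers also differed with disease in LT cells. *Flt3* was at 11.9 and 19.2 RPKM in LT-CML against 3.95 and 2.52 RPKM in LT-HSCs (called higher, adjusted p = 0.0185, limma). With no minimum on RPKM this call was lost. *Cd48* (16.8 and 29.5 against 10.45 and 5.17 RPKM) and *Slamf1* (35.5 and 25.4 against 14.3 and 10.7 RPKM) were also higher, but not called. *Ly6a* (-0.28, log2) and *Kit* (-0.06) went the other way, uncalled. The part of these markers in the CML comparisons was not tested. The label of quiescence was checked with 15 proliferation genes. In LT against KLS- cells, 11 of them were lower (20.8% of all genes tested) and 0 higher, but in LT against ST cells 11 were higher (2.74% of all genes tested) and 0 lower. LT libraries thus held more proliferation transcripts than ST libraries. Depth was an estimated 17.8 to 23.8 M reads per library. Transcripts of 5 neutrophil genes summed to 3855 RPKM in LT-HSC replicate 2 and to 1003 RPKM in LT-CML replicate 2, against 12.7 to 616 RPKM in the other 6 libraries. Of 12 stromal and endothelial genes, which included *Col1a1*, *Col3a1*, *Pdgfra*, *Dcn* and *Cdh5* at 0.2 RPKM or less in every library, the sum was 22.1 to 33.4 RPKM in stem cell libraries and 8.29 and 11.1 RPKM in KLS- libraries. That gap in the sum came from *Emcn*. Without it the sums of the other 11 were 7.11 to 13.3 RPKM in stem cell libraries and 6.67 and 10.9 RPKM in KLS- libraries. Of the 6 that were tested singly, however, *Sparc*, *Emcn*, *Col1a2* and *Kdr* were called higher in LT than in KLS- cells and 0 lower (limma). Of all genes tested, 25.5% were called higher. Transcripts of 5 megakaryocyte genes summed to 276 to 461 RPKM in the 4 LT libraries and to 35.1 to 88.8 RPKM in the other 4. All 5 were higher in LT than in KLS- cells and 4 were higher in LT than in ST cells (limma), against 25.5% and 2.74% of all genes tested. The erythroid sum was highest in LT-HSC replicate 2, at 66.3 RPKM, of which *Hbb-b1* gave 56.3 RPKM, against 3.30 to 39.5 RPKM elsewhere. The part of megakaryocyte, erythroid and stromal transcripts in the results below was not tested, and the calls without both LT replicates numbered 2 are given with LT against ST cells.

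The 10 genes fell into 3 ranges of level. *Impact* and *Grb10* were the most abundant, with means over the 4 LT libraries of 26.8 and 20.3 RPKM. *Ndn*, *Cdkn1c*, *Meg3*, *Igf2r* and *Mest* followed, with LT means of 8.18, 4.74, 2.65, 1.53 and 1.20 RPKM. *Peg3*, *H19* and *Plagl1* were barely detected, with LT means of 0.114, 0.0793 and 0.0539 RPKM. RPKM is scaled to transcript length, but priming was 3′-biased and the annotation behind the lengths is not given, so levels of different genes compare only roughly.

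**Figure D1:**
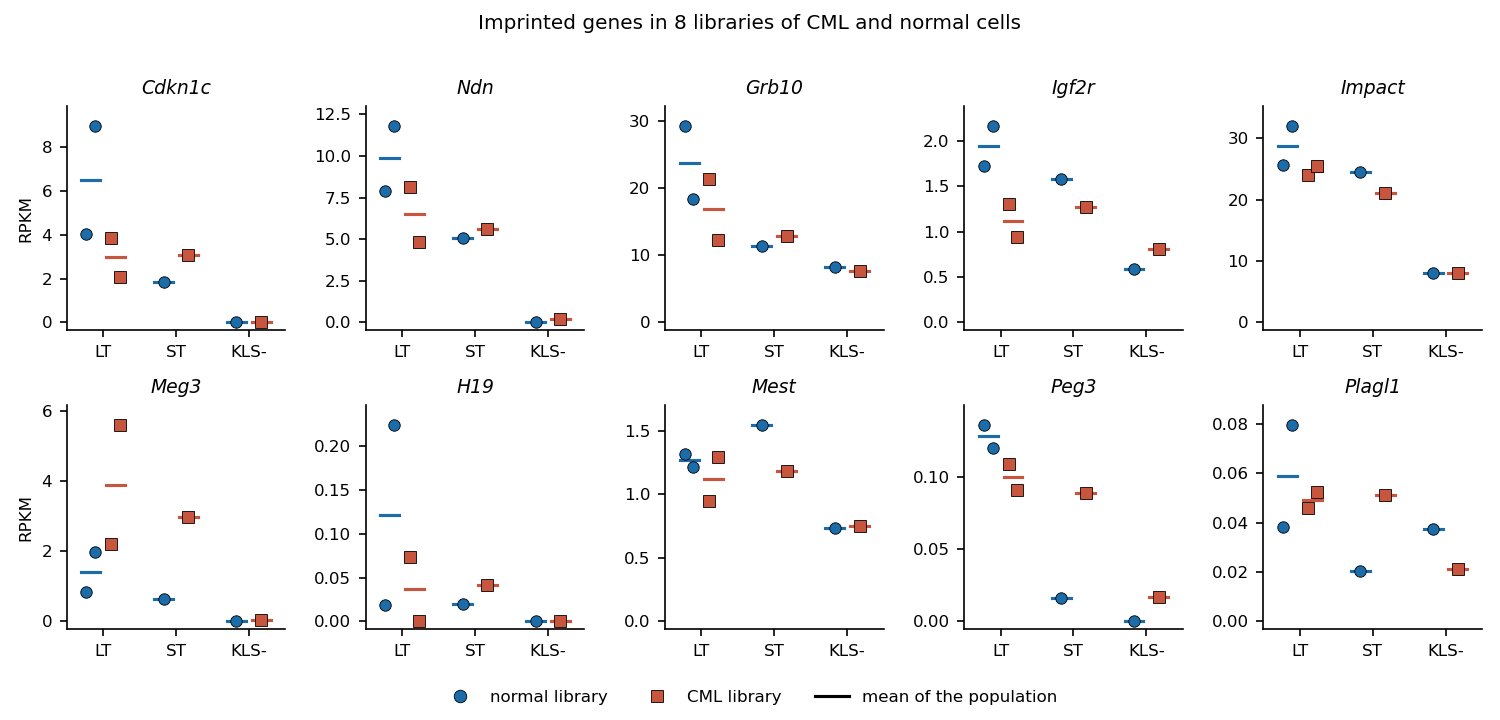
RPKM of each of the 10 imprinted genes (vertical axes, linear, 1 scale per gene) in LT, ST and KLS- cells. Circles are normal libraries, squares CML libraries and short lines the mean of each population; LT points are shifted left for replicate 1 and right for replicate 2. *Cdkn1c*, *Ndn* and *Meg3* sit at or near 0 in both KLS- libraries, and *Meg3* alone among the abundant genes has its 3 CML stem cell libraries above its 3 normal HSC libraries.

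The first comparison asked which of these genes distinguish LT stem cells from KLS- progenitors. *Cdkn1c*, *Ndn*, *Meg3*, *Impact*, *Grb10* and *Igf2r* were higher in LT cells, and none was lower. The largest fitted differences were those of *Ndn*, *Cdkn1c* and *Meg3*, which were at or near 0 in KLS- cells. Differences were fitted by limma on log2(RPKM + 1) across all 8 libraries with terms for cell type and disease, and p-values were adjusted by the Benjamini-Hochberg method over the 12561 genes whose RPKM summed to more than 1. *H19*, *Peg3* and *Plagl1* fell below that minimum and 7 of the 10 genes were tested, with 6 of these 7 called higher. Of all genes tested, 25.5% were called higher and 20.8% lower (46.4% in either direction). The median difference was 1.61 over the 7 genes and 0.07 over all genes on the log2 scale. A gene passes the minimum more readily when it is high in the larger group, so the count of 6 of 7 describes only the genes that passed. Megakaryocyte transcripts were higher in the LT libraries as well, as given above. In bulk RNA, fewer cells that express a gene and less RNA per cell cannot be told apart. The addition of 1 RPKM understates the change of genes at low levels.

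*Cdkn1c* stood at 4.04 and 8.99 RPKM in normal LT-HSCs and at 3.86 and 2.08 RPKM in LT-CML stem cells. It was at 1.82 RPKM in ST-HSCs and 3.08 RPKM in ST-CML stem cells. Both KLS- libraries were at 0, so stem cells and progenitors did not overlap. Against the level that 3 reads per library would give in KLS- cells, the LT mean was at least 57.6-fold higher and the ST mean at least 29.8-fold higher. The fitted LT minus KLS- difference was 2.39 ± 0.37 (SE; adjusted p = 0.00119, limma).

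*Ndn* stood at 7.89 and 11.8 RPKM in normal LT-HSCs and at 8.16 and 4.86 RPKM in LT-CML stem cells. ST-HSCs had 5.09 RPKM and ST-CML stem cells 5.59 RPKM. Normal KLS- cells were at 0 and CML-KLS- cells at 0.17 RPKM. This was the largest fitted difference of the 7, at 3.03 ± 0.26 (SE; adjusted p = 7.08e-05, limma).

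*Meg3* was at 0.839 and 1.97 RPKM in normal LT-HSCs and at 2.20 and 5.60 RPKM in LT-CML stem cells. ST-HSCs had 0.64 RPKM and ST-CML stem cells 2.98 RPKM. In KLS- cells it was at 0.00865 RPKM in the normal and 0.0294 RPKM in the CML library, far below all 6 stem cell libraries. The LT minus KLS- difference was 1.69 ± 0.34 (SE; adjusted p = 0.00429, limma). Without the CML-KLS- library it was 1.16 with an adjusted p of 0.0792, and among normal libraries alone 1.21 with an adjusted p of 0.0784.

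*Impact*, whose product restrains the GCN2 response to amino-acid shortage, was at 25.6 and 32.0 RPKM in normal LT-HSCs and at 23.9 and 25.4 RPKM in LT-CML stem cells. The ST libraries had 24.4 RPKM (normal) and 21.1 RPKM (CML), close to the LT libraries. The KLS- libraries stood at 8.04 and 8.08 RPKM, nearly equal in health and disease. The LT mean was 3.32 times the KLS- mean, and the fitted difference was 1.61 ± 0.14 (SE; adjusted p = 7.48e-05, limma), the smallest error of the 6 called genes.

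*Grb10* was graded across the 3 cell types. Normal LT-HSCs had 29.3 and 18.3 RPKM and LT-CML stem cells 21.3 and 12.2 RPKM. ST-HSCs had 11.4 RPKM, ST-CML stem cells 12.9 RPKM, and the KLS- libraries 8.23 and 7.68 RPKM. LT-CML replicate 2 lay below ST-CML, so the LT and ST levels overlapped. The LT minus KLS- difference was 1.19 ± 0.26 (SE; adjusted p = 0.00639, limma). It was 1.096 with an adjusted p of 0.0646 without the normal KLS- library.

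*Igf2r* showed the smallest called difference. Normal LT-HSCs had 1.72 and 2.17 RPKM and LT-CML stem cells 1.304 and 0.935 RPKM. The ST libraries had 1.58 RPKM (normal) and 1.27 RPKM (CML), and the KLS- libraries 0.592 RPKM (normal) and 0.805 RPKM (CML). No stem cell library overlapped a KLS- library, but LT-CML replicate 2 was close to CML-KLS-. The difference of 0.56 ± 0.17 (SE; adjusted p = 0.0274, limma) was 0.28 (adjusted p = 0.351) without the normal KLS- library and 0.22 (adjusted p = 0.304) after quantile normalization. Its adjusted p was also 0.0501 without LT-HSC replicate 1, 0.0561 without LT-CML replicate 1, 0.0641 with no minimum on RPKM, 0.0754 among normal libraries alone and 0.462 among CML libraries alone, so the call was lost in 7 of 17 alternatives.

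*Mest*, a paternally expressed gene of mesodermal tissues, was at 0.95 to 1.55 RPKM in the 6 stem cell libraries and at 0.738 and 0.751 RPKM in the KLS- libraries. The groups did not overlap, yet its difference of 0.33 ± 0.13 (SE) did not pass the test (adjusted p = 0.0588, limma). It passed after upper-quartile scaling, at 0.44 (adjusted p = 0.0298), and was at -0.01 after quantile normalization. Of the 10 genes, 7 had every stem cell library above both KLS- libraries, a separation that 27.7% of all genes tested showed.

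The 3 genes below the minimum rested on few reads. *Peg3* was at 0.136, 0.120, 0.109 and 0.0912 RPKM in the LT libraries, an estimated 18, 19, 15 and 11 reads. ST-HSCs had 2 reads, ST-CML stem cells 11, normal KLS- cells 0 and CML-KLS- cells 2. In RPKM all 4 LT libraries were above both ST libraries, as for 12.9% of all genes tested, but LT-CML replicate 2 and ST-CML rested on 11 reads each and differed only by depth. When the minimum was dropped and every gene with any value was tested, the LT minus KLS- difference of *Peg3* was 0.14 (adjusted p = 0.024, limma).

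*H19* had an estimated 1 and 14 reads in the LT-HSC libraries, 4 and 0 in the LT-CML libraries, 1 in ST-HSCs, 2 in ST-CML stem cells and 0 in both KLS- libraries. Its level in normal LT-HSCs was therefore set by replicate 2, from the mice labelled 6 months old, at 0.224 RPKM against 0.0192 RPKM in replicate 1. *Plagl1* had 2 to 10 reads in every library, KLS- included, and no difference was detectable at this depth.

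**Figure D2:**
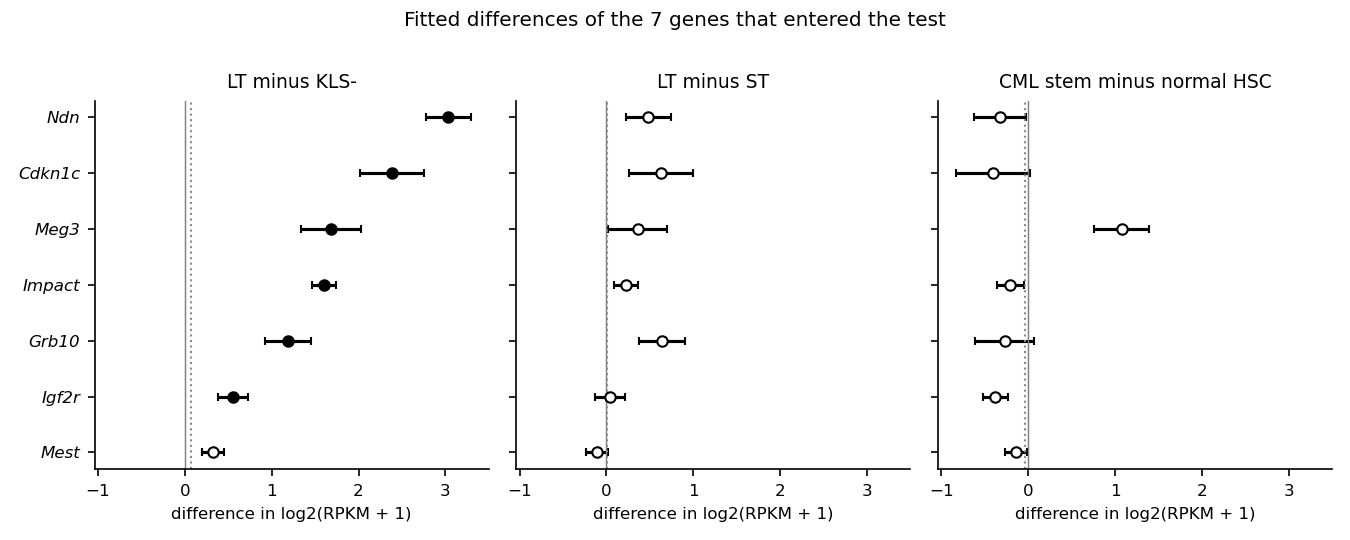
Fitted differences in log2(RPKM + 1) with standard errors for the 7 genes tested, in LT minus KLS-, LT minus ST and CML stem minus normal HSC. Filled points passed an adjusted p of 0.05 (limma), open points did not, and dotted lines mark the median of all genes tested. In the left panel 6 points are filled, from *Ndn* at 3.03 to *Igf2r* at 0.56, and in the other panels none is.

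The second comparison set LT against ST stem cells in the same fit. None of the 7 genes was called (limma), against 4.87% of all genes tested, and 1 of them, *Grb10*, had an unadjusted p under 0.05. *Grb10* had a difference of 0.64 ± 0.26 (SE; adjusted p = 0.223), *Cdkn1c* of 0.63 ± 0.37 (adjusted p = 0.396) and *Ndn* of 0.48 ± 0.26 (adjusted p = 0.353). The other four ranged from -0.11 for *Mest* to 0.36 for *Meg3*. LT replicates differed from each other by as much as LT from ST cells: *Grb10* in LT-HSC replicate 1 was 1.6 times that in replicate 2, and *Cdkn1c* in replicate 2 was 2.23 times that in replicate 1. Without both LT replicates numbered 2, the libraries with the most neutrophil transcripts in their groups, *Grb10* was called higher in LT cells, at 0.99 ± 0.17 (SE; adjusted p = 0.0222, limma). The same 6 genes were still called higher in LT than in KLS- cells without these libraries. The levels of *Impact*, *Igf2r* and *Mest* in ST cells lay within or close to the LT range.

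The third comparison asked whether CML altered these genes in stem cells, with 3 CML stem cell libraries (LT-CML 1 and 2, ST-CML) set against 3 normal HSC libraries (LT-HSC 1 and 2, ST-HSC). None of the 7 genes was called (limma), against 2.34% of all genes tested, and 2 of them, *Meg3* and *Igf2r*, had an unadjusted p under 0.05. *Meg3* averaged 3.59 ± 1.78 RPKM in CML stem cells and 1.15 ± 0.718 RPKM in normal HSCs (SD, n = 3 each), a ratio of 3.12. All 3 CML values were above all 3 normal values, which 6.92% of all genes tested showed. The fitted difference was 1.08 ± 0.32 (SE; adjusted p = 0.184). *Igf2r* went the other way, at 1.17 ± 0.204 RPKM in CML stem cells and 1.82 ± 0.306 RPKM in normal HSCs (SD, n = 3 each), with all CML values below all normal values as for 11.4% of genes tested. Its difference was -0.38 ± 0.14 (SE; adjusted p = 0.328). The stromal gene *Sparc* was at 2.02, 2.01 and 1.07 RPKM in CML stem cells and at 0.109, 0.255 and 0.116 RPKM in normal HSCs, and was called higher (1.20, adjusted p = 0.0127, limma). *Pdgfrb* had a difference of 1.06 (adjusted p = 0.175) and was called in LT-CML against LT-HSC (adjusted p = 0.0282). That call was lost with no minimum on RPKM (adjusted p = 0.246, limma). Of the 6 stromal and endothelial genes tested in CML stem cells against normal HSCs, 3 had a positive difference. *Emcn* (-0.48), *Lepr* (-0.26) and *Kdr* (-0.11) went the other way, uncalled. *Col1a1*, *Col3a1*, *Pdgfra*, *Dcn* and *Cdh5* were at 0.2 RPKM or less in these libraries too, and the part of stromal cells in the *Meg3* values was not tested. The other 5 genes ranged from -0.41 for *Cdkn1c* to -0.14 for *Mest*, each with groups that overlapped.

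Between the LT populations alone, fitted with 1 mean for each of the 6 populations, none of the 7 genes was called (limma), against 1.73% of all genes. *Meg3*, *Cdkn1c* and *Igf2r* had an unadjusted p under 0.05. *Cdkn1c* was lower in both LT-CML libraries than in either LT-HSC library, with a fitted difference of -0.87 ± 0.36 (SE; adjusted p = 0.406). The nearest values, 3.86 and 4.04 RPKM, were almost equal. *Igf2r*, *Impact* and *Peg3* were also lower in LT-CML without overlap, as were 23% of all genes tested. *Meg3* was higher in both LT-CML libraries, as were 17.5% of all genes, at 0.97 ± 0.36 (SE; adjusted p = 0.355). In ST cells, with 1 library on each side, *Cdkn1c* stood the opposite way, at 3.08 RPKM in ST-CML and 1.82 RPKM in ST-HSC. Whether the CML difference was unlike in stem cells and in KLS- cells was tested by an interaction term. It called 0.0717% of all genes and none of the 7 (limma, 0 with an unadjusted p under 0.05). The *Meg3* term was 1.05 ± 0.57 and the *Igf2r* term -0.56 ± 0.28 (SE; adjusted p = 0.9996 for both).

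*Meg3* belongs to the *Dlk1*-*Meg3* domain of chromosome 12, in which the paternal copy expresses *Dlk1*, a Notch-like transmembrane protein, and the maternal copy expresses a run of non-coding RNAs. *Rian*, one of these RNAs, had an estimated 12 and 35 reads in LT-HSCs, 6 in ST-HSCs, 22 and 47 in LT-CML, 36 in ST-CML and 0 in both KLS- libraries. *Rian* was called higher in LT than in KLS- cells, at 0.47 ± 0.15 (SE; adjusted p = 0.0345, limma), and was not with no minimum on RPKM (adjusted p = 0.0551). *Mirg*, further along the domain, had 4 reads in LT-CML replicate 1, 3 in ST-CML and 0 elsewhere. *Dlk1* had 2 and 4 reads in LT-HSCs and 1 in ST-HSCs against 7, 11 and 7 in the CML stem cell libraries. The means of the maternally expressed *Rian* and the paternally expressed *Dlk1* were both above normal HSCs in CML stem cells. For *Dlk1* each CML stem cell library was above each normal HSC library, as for 6.92% of all genes tested, whereas *Rian* overlapped. Neither *Rian* (0.31, adjusted p = 0.444) nor *Dlk1* (0.25, adjusted p = 0.311) passed the test of CML stem cells against normal HSCs (limma).

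*H19* shares a domain of chromosome 7 with *Igf2*, the paternally expressed growth factor. *Igf2* was at 0.326 and 0.311 RPKM in LT-HSCs and 0.105 RPKM in ST-HSCs. It was at 0.0598 and 0.0952 RPKM in LT-CML, 0.0727 RPKM in ST-CML and 0 in both KLS- libraries. Each normal HSC library was above each CML stem cell library, as for 11.4% of all genes tested, though the nearest pair was 0.105 and 0.0952 RPKM. *Igf2* fell below the minimum. With no minimum its difference between CML stem cells and normal HSCs was -0.21 (adjusted p = 0.398, limma) and that between LT-CML and LT-HSC cells -0.29 (adjusted p = 0.185).

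**Figure D3:**
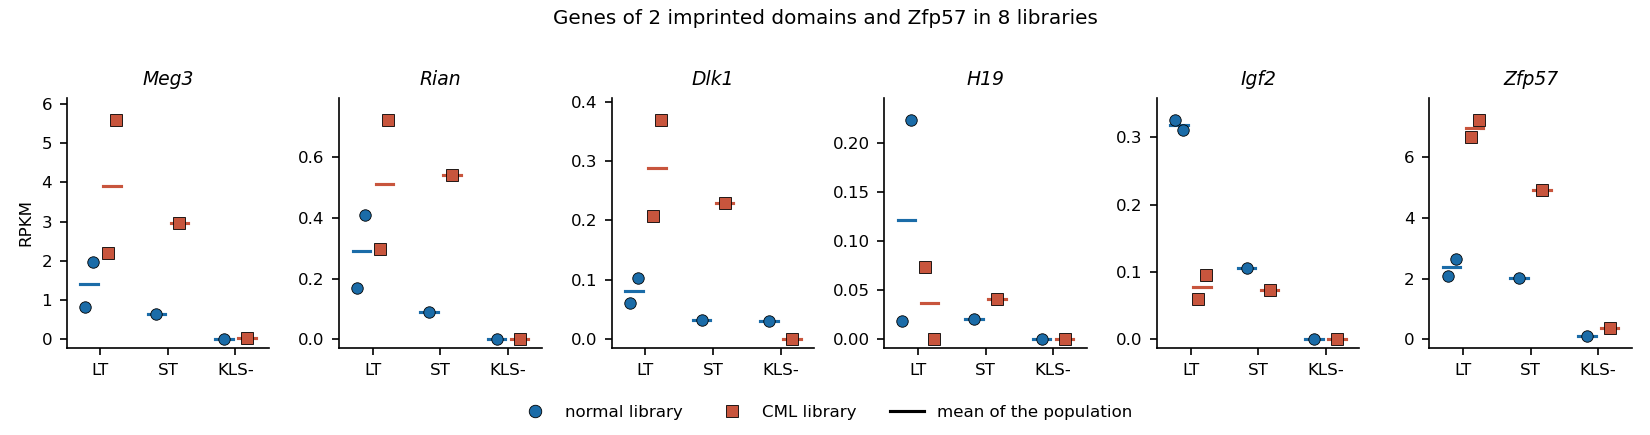
RPKM (vertical axes, linear, 1 scale per gene) of *Meg3*, *Rian* and *Dlk1* from the *Dlk1*-*Meg3* domain, *H19* and *Igf2* from the *Igf2*-*H19* domain, and *Zfp57*. Circles are normal libraries, squares CML libraries and short lines population means. *Meg3*, *Zfp57* and *Dlk1* are higher in each of the 3 CML stem cell libraries than in any normal HSC library, and *Igf2* is lower. *Dlk1* rests on at most 11 reads per library.

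*Zfp57* encodes a zinc-finger protein that binds methylated imprinting control regions and helps to preserve their methylation. It was at 2.08 and 2.65 RPKM in LT-HSCs and 2.02 RPKM in ST-HSCs, and at 6.66 and 7.23 RPKM in LT-CML and 4.93 RPKM in ST-CML stem cells. KLS- cells had 0.129 RPKM (normal) and 0.366 RPKM (CML). *Zfp57* was called higher in CML stem cells than in normal HSCs, at 1.15 ± 0.18 (SE; adjusted p = 0.0192, limma), a call that was lost with no minimum on RPKM (adjusted p = 0.0576). It was higher in LT than in KLS- cells, at 2.06 ± 0.21 (adjusted p = 0.000171). Of 9 imprint maintenance genes tested, *Zfp57* and *Dnmt3b* were higher and *Uhrf1* and *Dnmt1* lower in LT than in KLS- cells. Of all genes tested, 46.4% were called in either direction there. *Zfp57* was the only one of the 9 called in CML stem cells against normal HSCs, where 2.34% of all genes tested were called. *Dnmt1* was not called with no minimum (adjusted p = 0.0862).

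A wider list of imprinted genes was set beside these. Of 40 other imprinted genes tested, 16 were higher and 2 lower in LT than in KLS- cells and 22 did not pass, with a median difference of 0.33. Over all genes 25.5% were higher and 46.4% were called in either direction. With no minimum on RPKM, 16 of these 18 were still called, all but *Rian* and *Asb4*. *Sgce*, a sarcoglycan gene, was the largest, at 15.8 and 13.8 RPKM in LT-HSCs, 16.1 and 11.3 RPKM in LT-CML, 16.4 and 13.9 RPKM in ST cells and 1.05 and 0.695 RPKM in KLS- cells (difference 3.02 ± 0.16, SE; adjusted p = 1.22e-05, limma). *Ppp1r9a*, encoding neurabin, and *Phlda2* followed at 1.82 and 1.64. Not every gene of a domain passed the test. In the *Kcnq1* domain that holds *Cdkn1c*, *Phlda2*, *Slc22a18*, *Cd81*, *Tspan32* and *Kcnq1ot1* were higher, whereas *Tssc4* (-0.12), *Osbpl5* (-0.09) and *Nap1l4* (-0.34) did not pass. *Gatm*, an enzyme of creatine synthesis, was lower in LT than in KLS- cells (-1.76 ± 0.20, SE; adjusted p = 0.000251), as was *Commd1*. *Gatm* was also the only one of the 40 called in CML stem cells against normal HSCs. It was at 56.5, 63.7 and 51.8 RPKM in CML stem cells and at 23.2, 18.7 and 22.1 RPKM in normal HSCs (1.38 ± 0.14, SE; adjusted p = 0.00316).

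**Figure D4:**
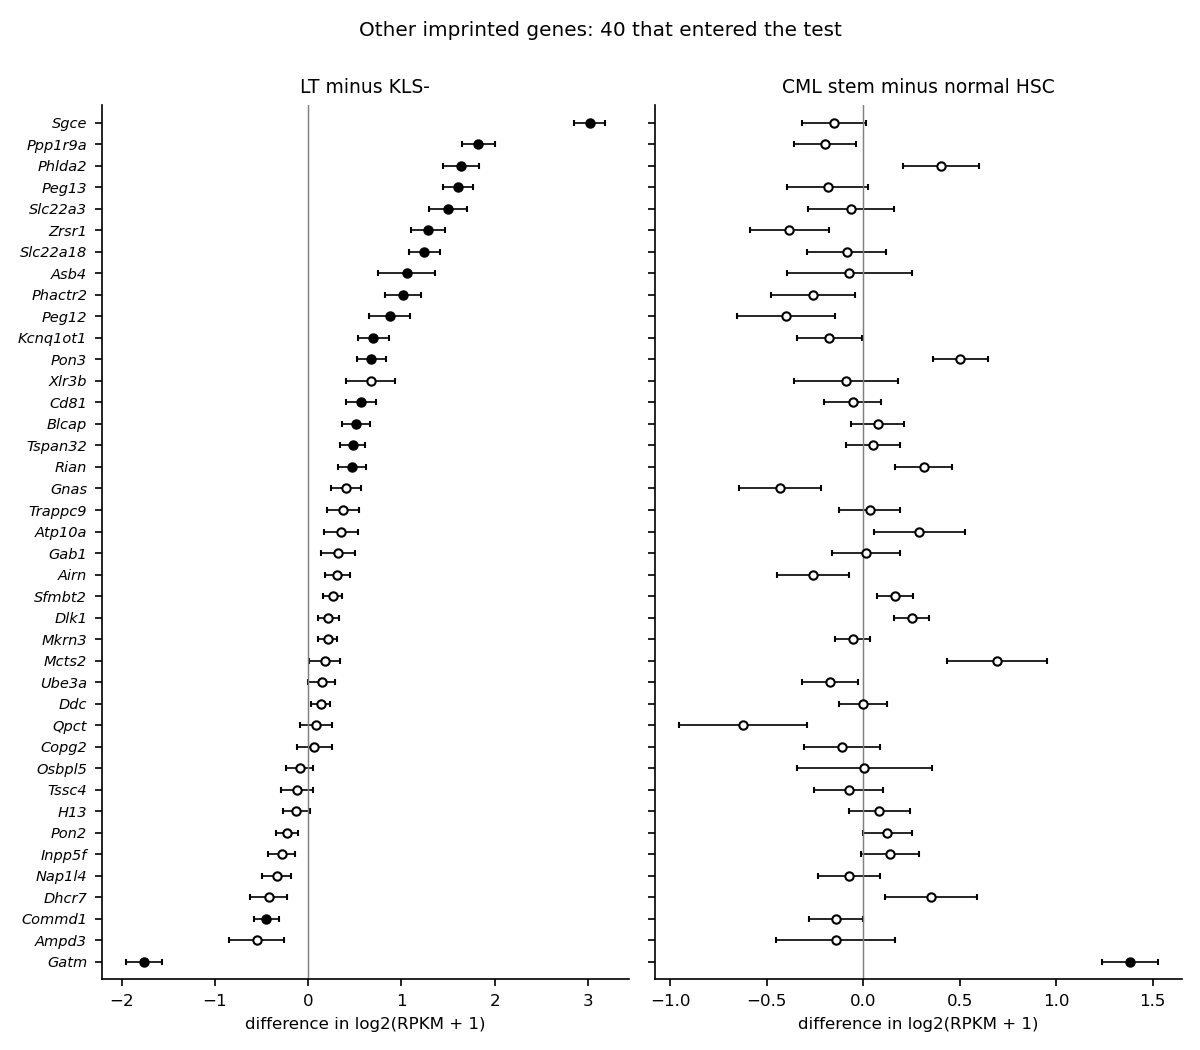
Fitted differences in log2(RPKM + 1) with standard errors for the 40 other imprinted genes tested, ordered by LT minus KLS- (left), with CML stem minus normal HSC on the right on its own scale. Filled points passed an adjusted p of 0.05 (limma). On the left 18 points are filled, 16 of them above 0, and on the right *Gatm* alone.

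*Cdkn1c* was set beside the other CDK inhibitors. Of 6 tested, *Cdkn1a* (p21), *Cdkn1b* (p27), *Cdkn1c* and *Cdkn2d* (p19) were higher in LT than in KLS- cells (25.5% of all genes tested), and *Cdkn3*, a phosphatase gene that is transcribed in cycling cells, was lower (20.8% of all genes tested). *Cdkn1c* had the largest difference of these, at 2.39, with *Cdkn1a*, *Cdkn2d* and *Cdkn1b* between 0.92 and 1.117. *Cdkn1b* was the only one called in CML stem cells against normal HSCs, where 2.34% of all genes tested were called. It was at 7.47, 5.94 and 7.36 RPKM in CML stem cells and at 14.6, 14.9 and 15.9 RPKM in normal HSCs, with no overlap, as for 11.4% of all genes tested (-1.03 ± 0.14, SE; adjusted p = 0.0121, limma). *Cdkn1a* was at 8.17, 15.8 and 7.73 RPKM in CML stem cells and at 19.7, 38.0 and 19.8 RPKM in normal HSCs, again without overlap, but did not pass (-1.22 ± 0.33, SE; adjusted p = 0.147). *Cdkn1c*, by contrast, overlapped between the groups.

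**Figure D5:**
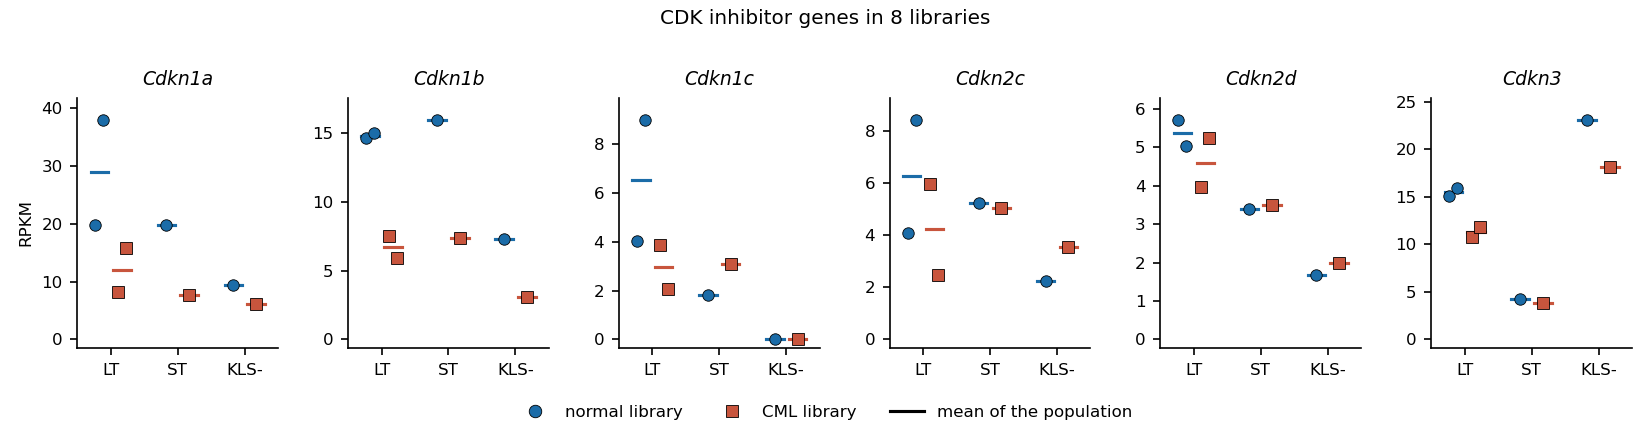
RPKM (vertical axes, linear, 1 scale per gene) of 6 CDK inhibitor genes in LT, ST and KLS- cells. Circles are normal libraries, squares CML libraries and short lines population means. *Cdkn1c* alone reaches 0 in both KLS- libraries, and the CML squares of *Cdkn1b* lie below the normal circles in each cell type.

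*Grb10* and *Igf2r* act on IGF and insulin signalling, and 15 genes of that pathway were tested, these 2 included. In LT against KLS- cells 10 were higher, 1 lower and 4 did not pass, with a median difference of 0.60, against 25.5% higher and 46.4% called of all genes. With no minimum on RPKM, 8 of these 11 were still called, all but *Igf2r*, *Igf1* and *Igfbp4*. The receptors *Igf1r* and *Insr*, the adaptor *Irs2* and the transcription factor *Foxo1* were higher with *Grb10* and *Igf2r*, *Foxo1* by 1.48 ± 0.15 (SE; adjusted p = 0.00018, limma), and the binding protein *Igfbp4* was lower. In LT against ST cells *Igf2bp2*, an RNA-binding protein gene, was the only one called, at 1.01 ± 0.14 (SE; adjusted p = 0.00657). None of the 15 was called in CML stem cells against normal HSCs (limma, 2.34% of all genes called), *Igf2r* among them.

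How alike the genes were was described by the Pearson correlation of log2(RPKM + 1) over the 8 libraries, which share their depth, sorts and disease states. The 21 pairs of the 7 genes with a mean of at least 1 RPKM all had a positive r, from 0.297 for *Meg3* and *Igf2r* to 0.981 for *Ndn* and *Impact*. Over the 6 stem cell libraries alone the range was -0.683 to 0.966, and 9 pairs were negative. *Cdkn1c* and *Ndn* had the highest value there. *Meg3* had a negative r with each of the other six. Much of the likeness over 8 libraries therefore lay in the step between stem cells and KLS- cells.

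Among 10026 genes with a mean of at least 1 RPKM, the 3 most like *Cdkn1c* were *Mllt3* (r = 0.992), *Maff* (0.99) and *Rab11fip5* (0.986). *Mllt3* encodes the chromatin reader AF9, and it stood at 28.5 and 45.1 RPKM in LT-HSCs, 14.98 RPKM in ST-HSCs and 4.03 RPKM in normal KLS- cells. The most like *Ndn* were *Fgd5* (r = 0.997), a guanine exchange factor gene whose locus is used to mark HSCs, *Parp4* and *Gng11*. For *Impact* they were *Marveld2* (r = 0.992), *Fnbp1l* and *Bicd1*. For *Grb10* they included *Vamp5* (r = 0.953) and *Pcbp3*, and for *Meg3* *Pigr* (r = 0.974) and *Cuedc1*. *Cuedc1* had the same order of disease states as *Meg3*, at 4.14, 5.54 and 4.21 RPKM in CML stem cells and 1.68, 2.10 and 0.83 RPKM in normal HSCs. For *Igf2r* they were *1700096K18Rik* (r = 0.983), *Six5* and *Rpl13*, and for *Mest* *Prpf40b* (r = 0.975), *Anxa11* and *2010002N04Rik*. With 8 libraries in 6 populations many genes reach such values, and the n for each r is 8.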

How the data were processed

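RNA of the sorted populations was sequenced in 8 libraries by the authors, who used an ultra-low-input kit with oligo-dT priming, paired reads of 100 bases and mapping to mm9 (submitters' processing notes) by a commercial service. The authors deposited RPKM per gene. The gene annotation and counting rule are not given in the sources used here, and 3′-biased priming and cDNA amplification may affect low values. RPKM are not counts, so no count model was used. Groups were taken from the labels.

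The 10 genes and all lists were chosen with earlier results of these data known. Genes with a total above 1 RPKM were fitted on log2(RPKM + 1) by limma 3.58.1 (lmFit, eBayes with intensity trend) in R 4.3.3, with p-values adjusted by Benjamini-Hochberg (threshold 0.05), and the fits were tested on simulated data. Python 3.11.15 with pandas 2.3.3 gave the other values. Whole reads were recovered from RPKM steps: 81.6% of 6245 low genes lay on whole multiples of 1 read within 0.05 reads or 0.04% of the value, and read numbers are given only for such genes. The scale, from GENCODE M1 exon lengths, is approximate. Read numbers and floors cover counting error only, since amplified reads are not independent molecules. Named were all 10 genes, the 3 genes most like each, and list genes that passed a test or were highest in their list, beside the markers of sorted and other cell types. Of the genes most like *Meg3* and *Grb10*, 1 each is not reported here. *Igf2*, *Dlk1* and *Mirg*, as partners in the domains of *H19* and *Meg3*, and *Airn*, *Tssc4* and *Nap1l4* were named after their values were seen. Alternatives were a pseudocount of 0.1, other minimums, quantile and upper-quartile scaling, no trend, subsets of libraries and each library left out. One alternative, leaving out both LT replicates numbered 2, was chosen after seeing the data.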

Additional observations from a re-analysis of the deposited data

How the results depend on the processing

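The numbers of genes called were 5823 for LT against KLS-, 612 for LT against ST, 294 for CML stem against normal HSC, 217 for LT-CML against LT-HSC and 9 for the interaction. LT against KLS- gave 1003 among normal and 2156 among CML libraries alone, and 2879 to 5574 with each library left out. Of its calls 55.1% were higher, but 69.6% after upper-quartile scaling, which moved the median of all genes to 0.21. LT against ST gave 283 with no minimum and 110 (without ST-CML) to 718 with each library left out. CML stem against normal HSC gave 193 with no minimum, 543 with LT or ST as a covariate, 38 without both LT replicates numbered 2 and 115 to 217 with each library left out. LT-CML against LT-HSC gave 0 with no minimum (limma, 1765 genes with an unadjusted p under 0.05) and 6 to 225 with each library left out. The interaction gave 2 with a pseudocount of 0.1, 5 with no minimum, 1 with a mean of at least 1 RPKM, 0 after upper-quartile scaling (438 with an unadjusted p under 0.05) and 0 (446, without LT-CML replicate 1) to 7 with each library left out.

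In LT against KLS-, *Cdkn1c*, *Ndn* and *Impact* were called under all 17 alternatives, *Meg3* under 15, *Grb10* under 14 and *Igf2r* under 10. *Grb10* was not called among normal (adjusted p = 0.0729) or CML libraries alone (0.101). *Mest* turned to -0.0052 after quantile normalization. In LT against ST, *Igf2r* turned to -0.0016 after quantile normalization and ranged from -0.049 to 0.14 with each library left out, and *Meg3* turned to -0.074 without both LT replicates numbered 2. In CML stem against normal HSC, *Grb10* ranged from -0.595 to 0.051 and *Cdkn1c* from -0.849 to 0.064 with each library left out, and without both replicates numbered 2 *Cdkn1c* was at 0.24 and *Ndn* at 0.078. *Mest* ranged from -0.219 to 0.017 in LT-CML against LT-HSC with each library left out. No tested member was called in either CML comparison or the interaction under any alternative, where the interaction covers *Meg3* and *Igf2r*. The cause of these changes was not tested. KLS- and ST have 1 library per disease state, so a lone library was assumed to vary like the others. No paired analysis was possible because the labels number only the LT-CML replicates.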
